A study of Bos indicus with 9 samples.

Results

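Genes that control apoptosis, the programmed death of cells, were followed in the corpus luteum of Nelore crossbred cattle (Bos indicus) after treatment with equine chorionic gonadotropin (eCG). The rule named 9 genes: BCL2, BCL2L1, MCL1, BAX, CASP8, FAS, FASLG, TNFRSF1A and XIAP. All probe sets whose single gene symbol in the array's probe table is 1 of these were taken, which gave 14 probe sets of 8 genes among 23914 tested probe sets. CASP8 has no probe set under its own symbol in that table and is not analysed here. BCL2 has 5 probe sets, FASLG and XIAP have 2 each, and the other 5 genes have 1 each. All 9 symbols are also listed by RefSeq for a Bos indicus assembly, which served for names alone, so no coordinates are given.

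All animals had their ovulation synchronised by a progesterone device together with estradiol benzoate. In the superovulated group, 3 cows were also given eCG at 2000 IU, on day 4 of that scheme. In the stimulated group, 3 cows were given 400 IU, on day 8. The 3 control cows had no eCG. The cows were 2 to 5 years old and kept on pasture with a supplement, and the corpora lutea were taken at slaughter on day 6 after ovulation. Dose and day of eCG differ together between the treated groups, so their effects cannot be told apart. Each array stands for 1 cow, and the labels call the arrays of a group biological replicates.

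The corpus luteum forms from the ovulated follicle, secretes progesterone and is removed by luteolysis when no pregnancy follows. Its later phase of removal involves apoptosis of steroidogenic and endothelial cells. In the mitochondrial pathway, BAX and BAK1 open the outer mitochondrial membrane, and BCL2, BCL2L1 and MCL1 hold them back. In the receptor pathway, FASLG on cytotoxic lymphocytes binds FAS, and the cytokine TNF binds TNFRSF1A. Both pathways end in caspases, proteases that XIAP can block.

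Values are log2 signals of microarray probe sets, read as described under processing, and differences between groups are log2 fold changes from limma. A probe set passes at a Benjamini-Hochberg adjusted p under 0.05 over all 23914 probe sets. Levels are compared between animals for the same probe set, not between genes. Over the 3 groups 1 probe set passed the moderated F test, which is 0.00418% of those tested, and it is PRSS2, which is no apoptosis gene. Leaving out either stimulated replicate 3 or superovulated replicate 3 made that count 2. The tissue label was checked against 8 measured genes of luteal steroidogenic cells, whose mean log2 signal lay between 13.09 and 13.27 in superovulated, 13.14 and 13.26 in stimulated and 13.08 and 13.36 in control animals. LHCGR, the LH receptor gene and 1 of the 8, had group means of 6.56, 6.22 and 6.13 in superovulated, stimulated and control animals.

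None of the 14 probe sets passed in any comparison, nor in the F test, where 0 of 14 had an unadjusted p under 0.05 (limma), against 7.69% of all probe sets. The largest difference belonged to BAX, which promotes apoptosis, with a log2 fold change of 0.54 in stimulated against control animals. FAS had the highest value in superovulated against control animals, at 0.33. The survival genes BCL2, BCL2L1 and MCL1 had values between -0.10 and 0.14 over their 7 probe sets in the comparisons with control.

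In superovulated against control animals 0 of 14 probe sets had an unadjusted p under 0.05 in the limma test, against 6.21% of all probe sets, and for 0 of 14 the groups did not overlap, against 10.9%. In stimulated against control animals 1 of 14, BAX, had an unadjusted p under 0.05 and was higher, against 3.68% of all probe sets in that direction. In 3 of 14 all stimulated animals lay above all controls, against 5.8% of all probe sets, and 0 lay below, against 5.72%. In superovulated against stimulated animals 0 of 14 had an unadjusted p under 0.05, against 9.63%, and 0 of 14 had groups that did not overlap, against 13.5%. Adjusted p values under 0.05 were met by 0%, 0.00418% and 0.00418% of all probe sets in these comparisons in the same order. Log2 fold changes were positive for 9, 8 and 9 of the 14 probe sets, against 50.8%, 48.8% and 51.3% of all probe sets. Their medians were 0.04, 0.03 and 0.02, beside 0.0022, -0.0040 and 0.0052 for all probe sets.

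**Figure D1:**
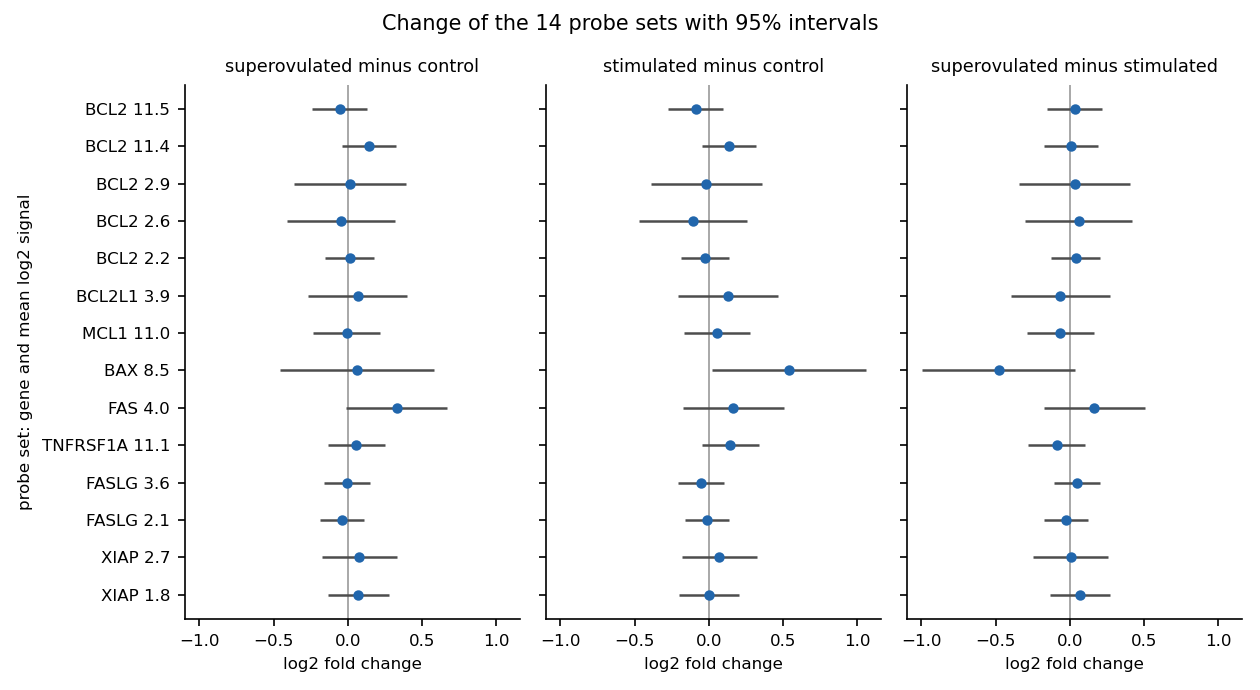
Log2 fold change (points, horizontal axis) of the 14 probe sets with 95% intervals from limma (bars) in each of the 3 comparisons, 3 animals a group. Rows give the gene and the mean log2 signal of the probe set over the 9 arrays. The 1 interval that leaves out 0 is that of BAX in stimulated minus control, from 0.02 to 1.06.

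Intervals show how large a difference in signal these 9 arrays leave possible. In each comparison 12 of the 14 probe sets had a 95% interval that lay within 0.5 log2 units on both sides of 0. The exceptions were BAX and FAS in all 3 comparisons. For dim probe sets a narrow interval bounds the signal and not the amount of RNA, and 9 of the 14 had a mean under 5.

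BAX encodes the effector that forms pores in the outer mitochondrial membrane. Its signal was 8.33, 8.02 and 8.77 in the superovulated, 8.84, 8.66 and 9.06 in the stimulated and 8.65, 8.24 and 8.04 in the control animals. All 3 stimulated animals were above all 3 controls, by a gap of 0.01 between the nearest pair, while superovulated and control animals covered nearly the same range. Group means were 8.37 ± 0.38, 8.85 ± 0.20 and 8.31 ± 0.31 in superovulated, stimulated and control animals (SD, n = 3 each).

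The BAX log2 fold change of stimulated against control animals was 0.54 (SE 0.22, 95% interval 0.02 to 1.06, limma adjusted p = 0.774), or 1.45-fold. Superovulated against stimulated animals had -0.48 (95% interval -0.995 to 0.04, limma adjusted p = 0.550), and superovulated against control animals had 0.06 (-0.45 to 0.58). In order of level the stimulated group came first and the superovulated and control groups followed, and these last neighbours differed by less than their SD. With each array left out in turn the value of stimulated against control animals stayed between 0.41 and 0.71. That of superovulated against stimulated animals ran from -0.68 without superovulated replicate 3 to -0.30 without superovulated replicate 2. The labels state no pairs of animals, and the link of same-numbered arrays described under processing comes from the data alone. Between superovulated and stimulated arrays of the same number, BAX differed by -0.51, -0.64 and -0.29. With the replicate block the limma adjusted p was 0.459. That fit took in all 9 arrays, also the controls, so this p is no test of these 3 differences alone. The residual SD of BAX between animals of a group was 0.30. This was larger than that of 79.3% of all probe sets and of 60.5% of those within 0.5 log2 units of its mean signal.

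Cell type markers differed between the same groups. The mean log2 signal of 15 macrophage and myeloid markers, of 17 listed, ran from 6.80 to 7.79 in superovulated, 7.09 to 8.10 in stimulated and 5.67 to 6.72 in control animals, so both treated groups lay above the controls. In stimulated against control animals all 15 were positive, with a median log2 fold change of 1.49, and 9 of them had an unadjusted p under 0.05, but 0 passed (limma). Of all probe sets 48.8% were positive in that comparison and 6.41% had an unadjusted p under 0.05 (limma). The mean of 5 neutrophil markers, of 7 listed, ran from 6.43 to 7.34 in superovulated, 4.81 to 5.48 in stimulated and 6.16 to 7.24 in control animals. The mean of 6 markers of granulosa cells and follicle remnants ran from 5.83 to 6.45 in superovulated, 6.54 to 6.80 in stimulated and 5.90 to 6.14 in control animals. Of the 6, 4 were positive and 2 negative in stimulated against control animals, and only for FST did these groups not overlap. The median log2 fold change was 0.27, and that of FST was 2.62. FST had means of 8.53, 9.97 and 7.35 in superovulated, stimulated and control animals, and INHA had 11.78, 11.92 and 12.02. Endothelial and pericyte marker means overlapped between all groups. In stimulated against control animals all 11 measured endothelial markers were positive (median 0.22), and 8 of 9 pericyte markers were negative (median -0.18). All 9 pericyte markers were positive in superovulated against stimulated animals (median 0.33), beside 51.3% of all probe sets. None of the endothelial and pericyte markers passed (limma). In bulk tissue, fewer cells of a type and less RNA per cell cannot be told apart.

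Signs of RNA quality also differed, with at least 1 pair of groups apart in 4 of 6 control transcripts. This count looks at 3 comparisons for each transcript, and in single comparisons the groups did not overlap for 10.9% to 13.5% of all probe sets. For cyclophilin, the signal of the 3′ control probe set minus that of the 5′ one was 0.23 to 0.31 in superovulated, 0.24 to 0.32 in stimulated and 0.14 to 0.18 in control animals. For GAPDH it was -0.039 to 0.021 in superovulated, -0.025 to -0.0038 in stimulated and -0.084 to -0.026 in control animals, so the stimulated group lay just above the controls. For GST it was -0.20 to -0.10 in superovulated, -0.78 to -0.30 in stimulated and -0.73 to -0.37 in control animals, so the superovulated group stood apart. For eIF-4E it was 2.82 to 3.04 in superovulated, 2.75 to 2.97 in stimulated and 2.68 to 2.79 in control animals, so the superovulated group lay above the controls. The part of the markers and of RNA quality in the BAX values was not tested.

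**Figure D2:**
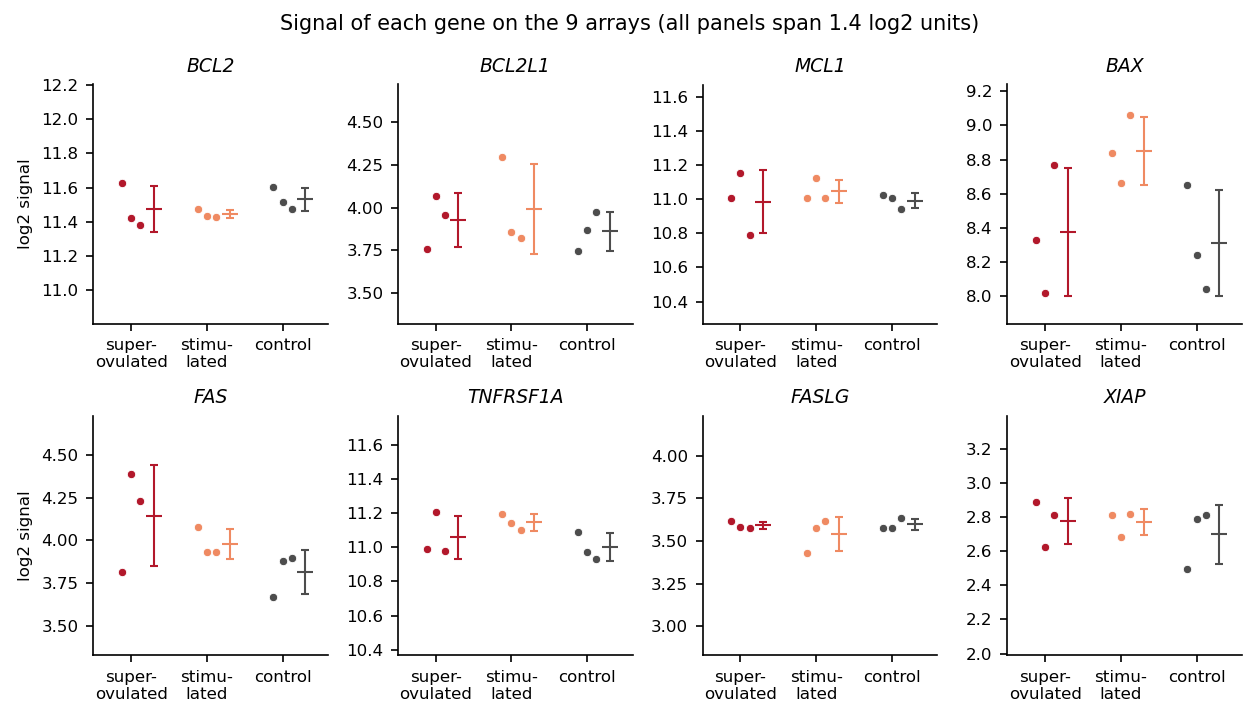
Log2 signal (vertical axis) of 8 apoptosis genes on the 9 arrays, for the probe set of highest mean of each gene; points are animals in the order of their replicate numbers, and the bars beside them are the mean and SD of the 3 animals. BAX in the stimulated animals (8.66 to 9.06) lies just above the controls (8.04 to 8.65), and all panels cover the same span of log2 units.

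FAS is the cell surface receptor through which FASLG triggers death. Its signal was 3.81, 4.39 and 4.23 in the superovulated, 4.08, 3.93 and 3.93 in the stimulated and 3.67, 3.88 and 3.89 in the control animals. The superovulated group held both the highest value of all and one below 2 of the controls, so it overlapped the controls, whereas the stimulated animals were above all controls by a gap of 0.035. Group means were 4.14 ± 0.30, 3.98 ± 0.09 and 3.81 ± 0.13 in superovulated, stimulated and control animals (SD, n = 3 each).

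The FAS log2 fold change was 0.33 in superovulated against control animals (SE 0.15, 95% interval -0.01 to 0.67, limma adjusted p = 0.809). It was 0.21 without superovulated replicate 2 and 0.49 without superovulated replicate 1. Stimulated against control animals had 0.17 (-0.18 to 0.51, limma adjusted p = 0.889), and 0.09 without control replicate 1. The superovulated group came first in level, then the stimulated and then the control group, with a difference between the first neighbours of 0.16, less than the SD of the superovulated group, and between the next of 0.17, more than either SD. The FAS signal ranked near the middle of all probe sets, with 47.6% of them dimmer. Its mean of 3.98 over the 9 arrays lay low in the range of restored values, 0.85 to 15.36.

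TNFRSF1A encodes the main receptor through which TNF can signal death or inflammation. Its signal was 10.99, 11.20 and 10.98 in the superovulated, 11.20, 11.14 and 11.10 in the stimulated and 11.09, 10.97 and 10.93 in the control animals. All stimulated animals were above all controls, by a gap of 0.0095, and the superovulated animals overlapped both groups. Group means were 11.06 ± 0.13, 11.14 ± 0.05 and 11.00 ± 0.08 in superovulated, stimulated and control animals (SD, n = 3 each).

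The TNFRSF1A log2 fold change was 0.15 in stimulated against control animals (SE 0.08, 95% interval -0.05 to 0.34, limma adjusted p = 0.843) and 0.06 in superovulated against control animals (-0.13 to 0.25). The upper bound of the first interval is 1.26-fold. The value ran from 0.11 to 0.19 as each array was left out. Stimulated replicate 1 and superovulated replicate 2 had the highest TNFRSF1A signals of the 9 arrays.

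FASLG, the ligand of FAS, had the smallest spread of these genes. Its brighter probe set read 3.62, 3.58 and 3.57 in the superovulated, 3.43, 3.58 and 3.62 in the stimulated and 3.58, 3.58 and 3.63 in the control animals. The groups overlapped, and 3 arrays had the same value, compared to 9 decimals. Of all probe sets 42.6% were dimmer than this one, and 8.09% were dimmer than the second, whose values ran from 2.07 to 2.22.

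The FASLG log2 fold changes were -0.0052 in superovulated and -0.05 in stimulated against control animals, and the 95% intervals of both probe sets lay between -0.21 and 0.15 in these comparisons. Residual SDs were 0.06 for each probe set, smaller than for all but 8.67% and 6.10% of probe sets. The 15 measured markers of T and NK cells, the cells known to make FASLG, had mean log2 signals of 3.05 to 3.36 in superovulated, 3.25 to 4.08 in stimulated and 2.95 to 3.32 in control animals. Of these 15 markers 10 were positive in superovulated against control animals, with a median log2 fold change of 0.06 and 1 at an unadjusted p under 0.05. Stimulated against control animals had 14 positive, with a median of 0.40 and 3 at an unadjusted p under 0.05, and 0 passed in either comparison (limma). Of all probe sets 50.8% and 48.8% were positive in these comparisons, and 6.21% and 6.41% had an unadjusted p under 0.05 (limma). The part of these markers in the FASLG values was not tested.

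BCL2, the founding survival protein of its family, is the gene with the most probe sets, and they did not behave alike. The probe set with the highest mean, Bt.7135.1.S1_at, read 11.63, 11.42 and 11.38 in the superovulated, 11.47, 11.43 and 11.43 in the stimulated and 11.60, 11.52 and 11.47 in the control animals. Its stimulated values were the lowest group on average, with means of 11.48 ± 0.13, 11.44 ± 0.025 and 11.53 ± 0.07 in superovulated, stimulated and control animals (SD, n = 3 each). The second, Bt.9742.1.S1_at, read 11.34, 11.46 and 11.51 in the superovulated, 11.38, 11.43 and 11.48 in the stimulated and 11.29, 11.40 and 11.19 in the control animals. Here the control group was the lowest, with means of 11.44 ± 0.09, 11.43 ± 0.05 and 11.29 ± 0.11 in superovulated, stimulated and control animals (SD, n = 3 each).

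The bright BCL2 probe sets therefore had log2 fold changes of opposite sign. Bt.7135.1.S1_at had -0.06 in superovulated and -0.09 in stimulated against control animals, and Bt.9742.1.S1_at had 0.14 in each of these comparisons, and none passed (limma adjusted p values of 0.828 to 0.936). The values of Bt.7135.1.S1_at were -0.13 without superovulated replicate 1 and -0.0058 without superovulated replicate 3 in the first comparison, and -0.05 without control replicate 1 in the second. Within an array, the second minus the first was -0.29, 0.04 and 0.13 in the superovulated, -0.09, -0.0029 and 0.05 in the stimulated and -0.32, -0.12 and -0.28 in the control animals. The stimulated animals lay above all controls in this difference and superovulated replicate 1 lay among the controls. This pair was chosen after its values were seen, so no test is given.

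**Figure D3:**
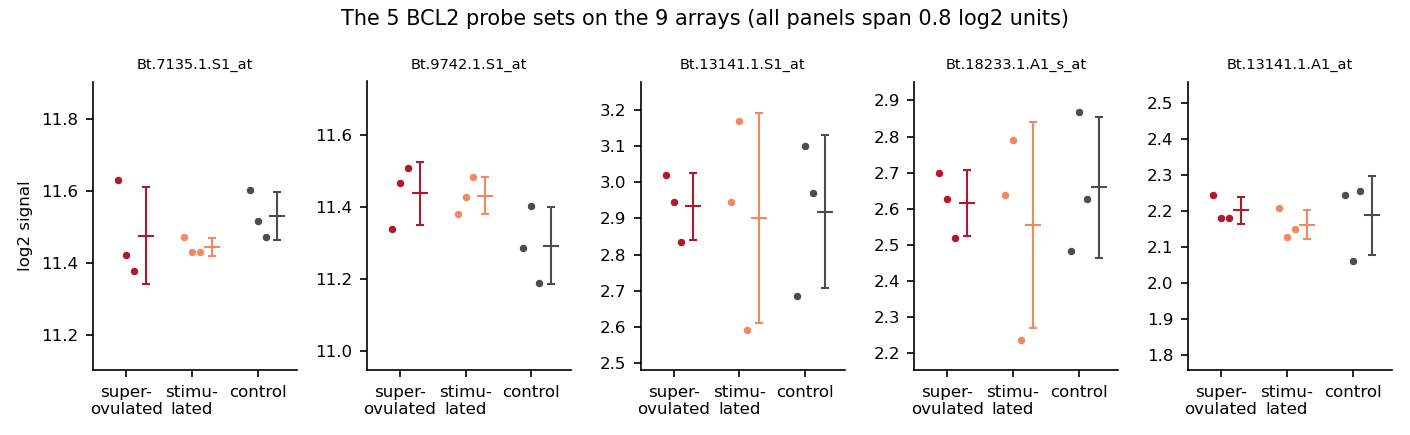
Log2 signal (vertical axis) of the 5 BCL2 probe sets on the 9 arrays, ordered by mean; points are animals and bars the mean and SD of 3. In the first panel the controls (11.47 to 11.60) are high and in the second (11.19 to 11.40) they are low, and all panels cover the same span of log2 units.

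The other 3 BCL2 probe sets were dim, with means over the 9 arrays of 2.92, 2.61 and 2.18. Those at 2.92 and 2.61, Bt.13141.1.S1_at and Bt.18233.1.A1_s_at, had their lowest signal in stimulated replicate 3, at 2.59 and 2.24. Their second lowest was in control replicate 1, at 2.69 and 2.48, so both probe sets shared their lowest arrays, which belong to different groups. Their residual SDs, 0.21 each, were larger than those of 87.2% and 91.9% of probe sets of like signal. Log2 fold changes against control of the 3 dim probe sets lay between -0.10 and 0.01.

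BCL2L1, the gene of the survival protein BCL-xL, read 3.76, 4.07 and 3.96 in the superovulated, 4.30, 3.86 and 3.82 in the stimulated and 3.75, 3.87 and 3.97 in the control animals. One stimulated animal, replicate 1, stood above the other 8 arrays, and the groups overlapped. The log2 fold change was 0.07 in superovulated (95% interval -0.27 to 0.40) and 0.13 in stimulated (-0.20 to 0.46) against control animals, with limma adjusted p values of 0.961 and 0.911. Without stimulated replicate 1 the second value was -0.02.

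MCL1, a survival protein with a short half-life, read 11.01, 11.15 and 10.79 in the superovulated, 11.01, 11.12 and 11.01 in the stimulated and 11.02, 11.01 and 10.94 in the control animals. The same value, compared to 9 decimals, stood on 4 arrays drawn from all groups, and superovulated replicates 2 and 3 held the highest and lowest signals. The log2 fold change was -0.0076 in superovulated and 0.06 in stimulated against control animals, the second being 0.017 without stimulated replicate 2 and 0.03 without control replicate 3. All 3 of its 95% intervals lay between -0.29 and 0.28, and the upper bound of stimulated against control was 1.21-fold.

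XIAP, which binds and blocks caspases, has 2 dim probe sets. The brighter read 2.89, 2.63 and 2.81 in the superovulated, 2.81, 2.68 and 2.82 in the stimulated and 2.50, 2.79 and 2.81 in the control animals. The groups overlapped, and control replicate 1 was the lowest array. Log2 fold changes against control were 0.08 in superovulated and 0.07 in stimulated animals, and without control replicate 1 they were -0.02 and -0.03. The dimmer probe set ran from 1.62 to 1.92, with 1.54% of all probe sets below it.

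Spread between animals was small for the bright probe sets. The 4 bright probe sets, of BCL2, MCL1 and TNFRSF1A, had residual SDs of 0.085 to 0.12, and each was smaller than the median of probe sets of like signal. Signals of 9 of the 14 probe sets had a mean under 5. An equal value on 2 or more arrays occurred in 9 of the 14 probe sets, against 36.8% of all probe sets.

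The wider pathway was described with 10 lists that hold 78 genes by role, 50 of them measured and 8 of these already described above. For each gene the probe set of highest mean was used, and 0 of the 50 passed in any comparison (limma). In superovulated against control animals an unadjusted p under 0.05 was found for 0 genes as higher and 1 as lower, which is 2% against 6.21% of all probe sets. In stimulated against control animals 5 were higher and 0 lower, or 10% against 6.41%, and in superovulated against stimulated animals 1 was higher and 3 lower, or 8% against 9.63%. Groups did not overlap for 4%, 16% and 12% of the 50 genes in these comparisons, against 10.9%, 11.5% and 13.5% of all probe sets. Without the 8 genes of the rule these shares were 4.76%, 11.9% and 14.3% of 42 genes. Medians of the 50 were 0.05, 0.02 and 0.0041, beside those of all probe sets given above. The genes without overlap in stimulated against control animals were BAX, FAS, TNFRSF1A, CASP1, BNIP3 and 1 other as higher and VDAC1 and BIRC6 as lower, and CASP1 and BNIP3 are named here after their values were seen.

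**Figure D4:**
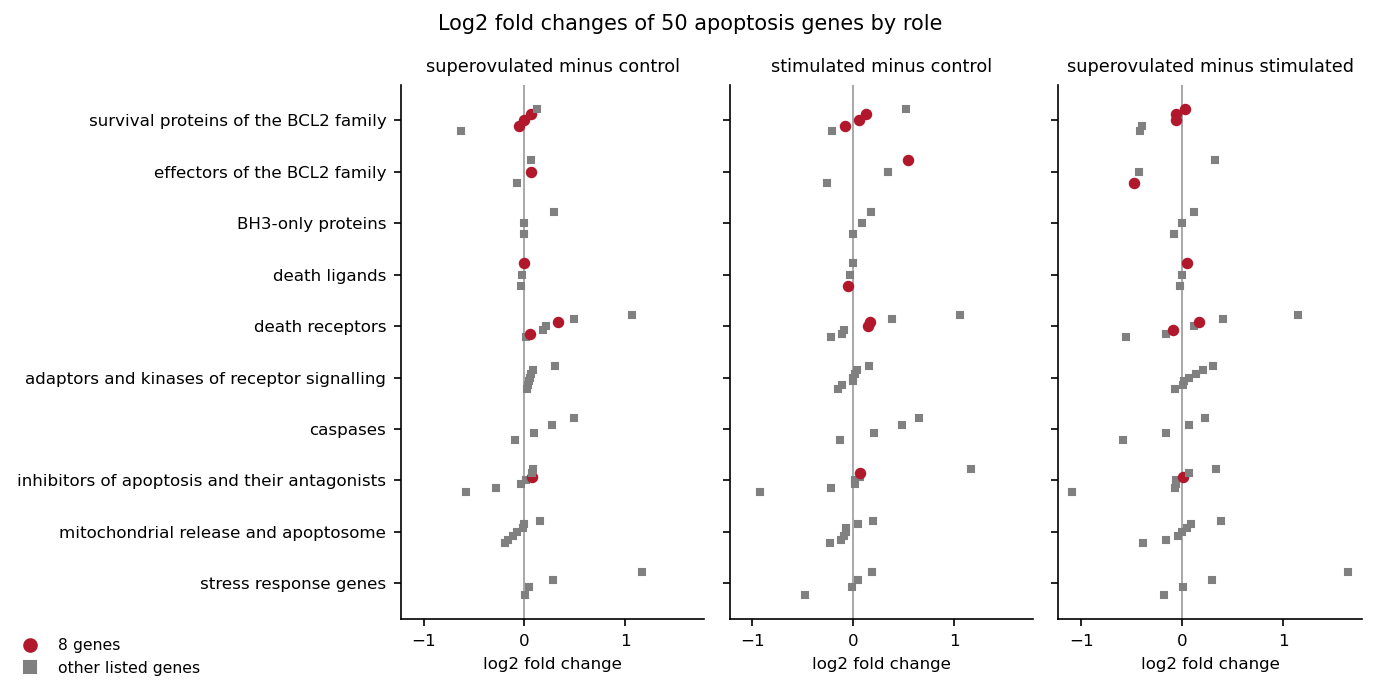
Log2 fold change (horizontal axis) of 50 apoptosis genes in 10 role lists (rows), 1 panel per comparison; round points are the 8 genes of the rule and squares the other listed genes, each for its probe set of highest mean. Most points lie near 0, the square furthest left among the survival proteins in superovulated minus control is BCL2L2 (-0.63), and the squares beyond 1 in stimulated minus control are TNFRSF21 (1.05) and XAF1 (1.17).

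Of the survival proteins 5 of 6 were measured. BCL2L2, the gene of BCL-w, had the smallest p of all 50 genes in superovulated against control animals. It read 8.02, 7.73 and 8.12 in the superovulated, 8.26, 8.23 and 8.61 in the stimulated and 8.59, 8.72 and 8.44 in the control animals. The superovulated animals were below all animals of both other groups. Its log2 fold change was -0.63 against control (SE 0.14, 95% interval -0.96 to -0.30, limma adjusted p = 0.638) and -0.41 against stimulated animals (limma adjusted p = 0.457), and neither passed. The GST sign of RNA quality given above sets the same group apart, and its part in the BCL2L2 values was not tested. BCL2A1, a survival protein of blood cells, had 0.12 in superovulated and 0.52 in stimulated against control animals, with 5.92 in stimulated replicate 1 and 3.85 to 4.90 on the other arrays.

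Of the other effectors the brighter probe set of BOK had the signs of BAX against the stimulated group, and BAK1 had the opposite ones. BAK1, which forms pores like BAX, had group means of 8.22 ± 0.19, 7.90 ± 0.29 and 8.16 ± 0.36 in superovulated, stimulated and control animals (SD, n = 3 each), with a log2 fold change of -0.26 in stimulated against control animals. BOK, a further effector of this family, had 0.35 there and -0.42 in superovulated against stimulated animals. A dim probe set of BOK, with a mean of 2.45 over the 9 arrays, had -0.13 and 0.09 in these comparisons. None of the 3 effectors passed.

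Of the BH3-only proteins, which start the mitochondrial pathway, 3 of 10 were measured, with medians of 0.00012 in superovulated and 0.08 in stimulated against control animals. BAD, one of them, had group means of 8.58 ± 0.22, 8.66 ± 0.08 and 8.58 ± 0.09 in superovulated, stimulated and control animals (SD, n = 3 each). Of the mitochondrial release and apoptosome genes 7 of 9 were measured, 6 of them negative in superovulated and 5 in stimulated against control animals. Of all probe sets 50.8% and 48.8% were positive in these comparisons. VDAC1, a channel of the outer mitochondrial membrane, read 13.31, 13.20 and 13.39 in the superovulated, 13.38, 13.26 and 13.36 in the stimulated and 13.46, 13.41 and 13.50 in the control animals, so both treated groups lay below all controls. For a second probe set this held in superovulated animals (log2 fold change -0.28), while stimulated and control animals overlapped (-0.12). These comparisons share their controls, and the log2 fold changes of the brighter probe set were -0.16 (limma adjusted p = 0.809) in superovulated and -0.12 (limma adjusted p = 0.845) in stimulated animals. APAF1, the scaffold of the apoptosome, lay between 1.79 and 1.93 on all arrays, with 2.48% of probe sets dimmer.

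Death ligands and receptors gave mixed values. TNF read 2.65 to 2.68 in the superovulated, 2.61 to 2.73 in the stimulated and 2.67 to 2.76 in the control animals, and 24.0% of probe sets were dimmer. All 7 measured receptors, of 9 listed, were positive in superovulated against control animals, beside 50.8% of all probe sets. Their median was 0.22, with 0 at an unadjusted p under 0.05 (limma). In stimulated against control animals 4 were positive and 3 negative. TNFRSF21, the receptor DR6, read 7.96, 8.68 and 8.33 in the superovulated, 9.06, 9.11 and 8.47 in the stimulated and 7.61, 8.65 and 7.23 in the control animals. Control replicate 2 reached into the stimulated range, and the log2 fold change of stimulated against control animals was 1.05 (SE 0.37, limma adjusted p = 0.715). TNFRSF1B, the other TNF receptor, had -0.11 in that comparison.

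Adaptors and kinases carry the signal from the receptors. Of 7 measured, of 11 listed, 7 were positive in superovulated and 3 in stimulated against control animals, beside 50.8% and 48.8% of all probe sets. Their medians were 0.05 and -0.00044, and 0 had an unadjusted p under 0.05 in either comparison (limma). FADD, which links FAS to caspases, read 6.88, 6.67 and 7.41 in the superovulated, 6.91, 6.46 and 6.68 in the stimulated and 6.68, 6.71 and 6.66 in the control animals, with superovulated replicate 3 the highest of the 9 arrays. TRADD, the adaptor of TNFRSF1A, was likewise highest in superovulated replicate 3, at 7.60. Superovulated replicates 1 and 2 had 6.58 and 6.81, and the controls 6.79 to 7.23. RIPK1, a kinase of the TNF receptor complex, had 0.08 in superovulated and 0.15 in stimulated against control animals. CFLAR, which blocks caspase activation at the receptor, had 0.02 and -0.11 for its brightest probe set. Its other probe sets had -0.08 and -0.21 in superovulated and -0.07 and -0.11 in stimulated against control animals. The count of 7 positive in superovulated animals therefore depends on the probe set used.

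Of the caspases 4 of 10 were measured. CASP4, an inflammatory caspase, read 10.28, 9.93 and 10.32 in the superovulated, 10.92, 10.48 and 10.89 in the stimulated and 10.10, 10.18 and 10.54 in the control animals. All superovulated animals were below all stimulated ones, with a log2 fold change of -0.58 (SE 0.17, limma adjusted p = 0.416), and a second probe set had -0.40. Against control the stimulated animals had 0.49 (limma adjusted p = 0.715). CASP9, the caspase of the apoptosome, had 0.10 in superovulated and -0.13 in stimulated against control animals.

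Of the inhibitors of apoptosis and their antagonists 7 of 9 were measured. XAF1, an antagonist of XIAP that interferon induces, read 7.09, 6.51 and 6.35 in the superovulated, 8.00, 7.28 and 7.94 in the stimulated and 6.29, 7.35 and 6.07 in the control animals. Control replicate 2 overlapped the stimulated range, while the superovulated animals were all below the stimulated ones. Its log2 fold change was 1.17 in stimulated against control (SE 0.37, limma adjusted p = 0.696) and -1.09 in superovulated against stimulated animals (limma adjusted p = 0.451). BIRC3, an inhibitor that also acts in TNF signalling, had 0.02 in stimulated against control animals, and a second probe set had 0.32 (limma adjusted p = 0.701), with all stimulated animals above all controls. BIRC6, a large inhibitor protein, had -0.29 in superovulated and -0.22 in stimulated against control animals for its brightest probe set. For that probe set all stimulated animals lay below all controls, while superovulated and control animals overlapped. Its other probe sets had 0.01 and -0.02 in superovulated and -0.11 and -0.0065 in stimulated against control animals. Their means over the 9 arrays were 5.89 and 2.74, and for both the treated groups overlapped the controls. DIABLO, which releases caspases from XIAP, had 0.01 in superovulated and 0.07 in stimulated against control animals.

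Of a last list of stress response genes, MDM2, an E3 ubiquitin ligase, had group means of 3.51 ± 0.07, 3.50 ± 0.05 and 3.46 ± 0.04 in superovulated, stimulated and control animals (SD, n = 3 each).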

How the data were processed

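Biotinylated cRNA of 9 corpora lutea was put on Affymetrix bovine arrays, 1 per animal and not pooled, per the labels' protocols. The deposited values are in no standard unit: each is a run of digits without its decimal mark. How probes were summarised and normalised, and the log base, is not given in the sources used here. The mark was put back from the digits with a limit of 16 on the log2 scale. Runs open to 2 readings made up 15.5% of cells. Of the 14 probe sets, 10 had no open run. The other 4 were open on all arrays and were read as 1x.x from their spread between arrays, each at a posterior probability of at least 0.9999. Of the whole array, 102 probe sets that are no controls stayed undecided and were left out, and 5.27 wrong readings are expected. Restored values run from 0.85 to 15.36 and are treated as log2 signals, the unit the tests were planned for. Array medians lie between 4.18 and 4.24, and no further normalisation was applied. The number of arrays limits the precision.

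The fit used limma 3.58.1 in R 4.3.3 with 1 mean per group on all 9 arrays with 6 residual degrees of freedom, 2-sided, and adjusted by Benjamini-Hochberg. The steps were tested on simulated data. Alternatives were quantile normalisation, no probe sets of the dimmest 25%, no open digit runs and the replicate number as a block on all 9 arrays. Others were fits on 2 groups, an intensity trend with a robust prior, the mean of a gene's probe sets, and each array left out. Leaving out the dimmest 25% kept the brightest probe set of each of the 8 genes, dim ones included. Same-numbered arrays of the superovulated and stimulated groups deviated together from their group means (correlations over probe sets of 0.20, 0.37 and 0.15), so the numbers meet the rule for pairs in that comparison only. Values given for it come from the fit without a block unless the block is named. The source of this pairing is the data, not the labels.

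The 9 genes and all lists were chosen with earlier results of these data known. Named beside them were 26 genes of the wider lists, 16 of them measured, and the 3 others with the smallest p in each comparison.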

Additional observations from a re-analysis of the deposited data

How the results depend on the processing

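For the 8 apoptosis genes, 375 values under alternative settings were set beside 24 log2 fold changes, 3 per gene. None of the 375 passed, and the lowest adjusted p was 0.396 (limma). In 352 the direction was kept. XIAP in superovulated against stimulated animals was -0.012 under quantile normalisation, and BCL2 in superovulated against control animals was 0.015 with the mean of its probe sets. With the replicate block the lowest adjusted p was 0.459, for BAX in superovulated against stimulated animals, and no call changed for these genes. All other turns of sign came from leaving out 1 array, and the cause was not tested. In superovulated against control animals the values so ran from -0.0049 to 0.15 for BCL2L1, -0.093 to 0.090 for MCL1, -0.14 to 0.24 for BAX, -0.018 to 0.014 for FASLG, -0.015 to 0.10 for TNFRSF1A and -0.024 to 0.15 for XIAP. In stimulated against control animals they ran from -0.022 to 0.21 for BCL2L1, -0.093 to 0.0015 for FASLG and -0.030 to 0.13 for XIAP. In superovulated against stimulated animals they ran from -0.044 to 0.081 for BCL2, -0.15 to 0.089 for BCL2L1, -0.15 to 0.035 for MCL1, -0.0067 to 0.088 for FASLG and -0.051 to 0.080 for XIAP. Among all probe sets, the count that passed in superovulated against control animals was 0 (1485 at an unadjusted p under 0.05), 1 in a fit on these 2 groups, and 0 to 1 as arrays were left out, with 1 without stimulated replicate 3. In stimulated against control animals it was 1, 3 with the replicate block, whose numbers do not pair these groups (correlations 0.16, 0.28 and -0.03), and 0 to 4 as arrays were left out. Dropping stimulated replicate 3 gave 0, dropping control replicate 2 gave 2 and dropping superovulated replicate 3 gave 4. In superovulated against stimulated animals it was 1, 2 under quantile normalisation, 2 when probe sets with an open digit run were dropped, and 1 to 3 as arrays were left out. Dropping stimulated replicate 3 or superovulated replicate 3 gave 2, and dropping superovulated replicate 1 gave 3. For the F test, which a fit on 2 groups does not offer, it was 1 to 2. In superovulated against control animals the replicate numbers do not pair the groups either, since control replicate 1 correlated best with superovulated replicate 3 (0.25). Without open digit runs 15 of the 24 results could be computed, as the probe sets of BCL2, MCL1 and TNFRSF1A leave. The signals near the bottom of the array's range, such as those of XIAP, limit what could be seen there.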

Other observations

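Genes of the wider lists outside the naming rule, chosen after their values were seen, gave high signals on single arrays. PERP, a protein of desmosomes in epithelia, read 3.36, 4.62 and 9.32 in the superovulated, 3.85, 4.26 and 4.25 in the stimulated and 4.16, 4.74 and 4.91 in the control animals. NGFR, a receptor of neurotrophins, read 3.82, 4.06 and 6.30 in the superovulated, 3.46, 3.77 and 3.49 in the stimulated and 3.48, 3.44 and 4.07 in the control animals. Superovulated replicate 3 held the highest signal of both, and also of FADD and TRADD. CASP1, a caspase that matures interleukins, had group means of 3.14 ± 0.44, 3.30 ± 0.30 and 2.65 ± 0.22 in superovulated, stimulated and control animals (SD, n = 3 each), and all stimulated animals were above all controls (log2 fold change 0.65, limma adjusted p = 0.736). BIRC5, the gene of survivin, which is made in dividing cells, had 7.91 ± 1.80, 7.57 ± 0.56 and 8.49 ± 1.06 in the same order (SD, n = 3 each).

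The gene outside the lists whose signal was most like that of each gene over the 9 arrays, among 9003 genes searched, was taken as a description. By Pearson's r these were S100A1 for BCL2 (0.94), PAK1IP1 for BCL2L1 (0.94), NFKBIZ for MCL1 (0.93), EZH1 for BAX (0.95), HNRNPL for FAS (0.95), IL17A for FASLG (0.94), EFHD1 for TNFRSF1A (0.92) and MYG1 for XIAP (0.94). Every value rests on the same 9 arrays and is the highest of a search over all these genes.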
